A study of Drosophila melanogaster with 8 samples.

Results

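The fibroblast growth factor (FGF) genes of Drosophila melanogaster were followed across a gene activation experiment in S2R+ cells, an established embryonic line with features of blood cells. The 6 genes were taken by their exact symbols from the count tables of 14161 genes: the receptors htl (heartless) and btl (breathless), the ligands pyr (pyramus), ths (thisbe) and bnl (branchless), and the adaptor stumps. Messenger RNA was sequenced in 8 libraries, 2 for each of 4 groups. All cells were transfected with Actin:dCas9-VPR, a nuclease-dead Cas9 joined to transcriptional activation domains and carried on an Actin construct. The groups differed in the guide RNAs that were transfected with it: the pools against snail and twist together, a pool of 5 guides against twist, a pool of 5 guides against snail, or control guides. The control guides are described in the sample labels as aimed at the promoter of a luciferase reporter, and elsewhere in the labels as non-targeting. The labels give no time after transfection and no share of cells that took up the constructs.

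FGF receptors are receptor tyrosine kinases that pass their signal through RAS and the MAP kinase cascade. In the fly embryo, Heartless acts in the mesoderm, where it is needed for the spreading of mesoderm cells over the ectoderm, and its ligands Pyramus and Thisbe come mainly from neighbouring tissue. Breathless acts in the tracheal system and guides branches towards Branchless. Stumps is an intracellular adaptor that both receptors need to reach the MAP kinase cascade. twi and sna encode Twist, a bHLH activator, and Snail, a zinc-finger factor best known as a repressor, which together specify the mesoderm. In the embryo htl and stumps are expressed in the mesoderm under the control of Twist, and Snail keeps ths out of it.

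The depth was 10752993 to 13351166 counts per library, so that 1 count was worth 0.0734 to 0.0928 CPM, the unit of normalised level used here: counts scaled to a common library total with TMM factors, which allow for libraries of different composition. The targeted genes followed the labels: twi had 164 and 137 counts with both guide pools, 345 and 384 counts with Twist guides, and 0 counts in the Snail and control libraries. sna had 1485 and 1320 counts with both guide pools, 1079 and 1218 counts with Snail guides, and at most 2 counts in a Twist or control library. The 2 control libraries lay farther apart than other replicate pairs: their spread was 24.1 times the variance that counting gives, while it was 3.49 times in the combined group, 6.77 times in the Twist group and 3.82 times in the Snail group. The spread was pooled over groups, so p-values against control may be too small and those without the control group too large. In this bulk RNA, a higher level in each cell and a larger share of responding cells cannot be told apart.

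Of the line's markers, srp, a GATA factor of blood cells, stood at 128 to 163 CPM over the group means, and the scavenger receptor gene crq at 171 to 196 CPM. Hml reached at most 1.02 CPM in a group mean, eater at most 0.254 CPM and He at most 0.15 CPM, so blood cell markers were present in part. Of the 8 such markers tested, 1 passed: Pxn, an extracellular matrix peroxidase gene, fell with both guide pools to 84 and 73.9 CPM, against 105 and 100 CPM with control guides (log2 -0.37 ± 0.09, edgeR adjusted p = 0.05, under the threshold before rounding). It did not pass in 11 of 18 alternatives of the processing (other scalings, filters, fits and tests, or a library left out), among them each that left out a library other than a control one (adjusted p from 0.069 to 0.54). The part of this in the other results was not tested. Among the mesoderm and muscle markers Mef2 stood at 35.4 to 46.5 CPM and tin at 0.692 to 1 CPM, with bap at 0 counts and eve, Mhc and Act57B at most at 0.222 CPM. Among the tracheal markers trh stood at 3.54 to 6.84 CPM and bs at 36.2 to 40.3 CPM, with vvl and kni at most at 0.0464 CPM. Of the 2 tested genes in each of the mesoderm, tracheal, neural (elav, n-syb) and germline (nos, bam) lists, none passed against control guides in edgeR or DESeq2. An unadjusted p under 0.05 was met by 1 mesoderm gene with Snail guides and by 1 tracheal gene with both guide pools. It was also met by 1 germline gene with each pool and with both. The share of all tested genes under that unadjusted threshold is not given here. Such counts, here and below, are therefore not a result about a list. Over all tested genes, 1.57% passed in edgeR with both guide pools, 0.934% with Twist guides and 0.324% with Snail guides, each against control.

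The receptor htl and the ligand pyr rose with both guide pools, htl rose with Twist guides, and htl and pyr rose with Snail guides. The ligand bnl was high in every group, and ths, btl and stumps were low in every group. Per kilobase of the longest annotated transcript, the mean level with both guide pools was 30.4 CPM for bnl, 4.79 for htl, 1.94 for pyr, 0.126 for ths, 0.0642 for stumps and 0.058 for btl. In the control libraries the same quantity was 30.6 CPM per kilobase for bnl, 0.323 for htl, 0.158 for pyr, 0.0887 for stumps, 0.083 for btl and 0.0307 for ths. bnl was thus the most abundant of the 6 transcripts in either group.

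**Figure D1:**
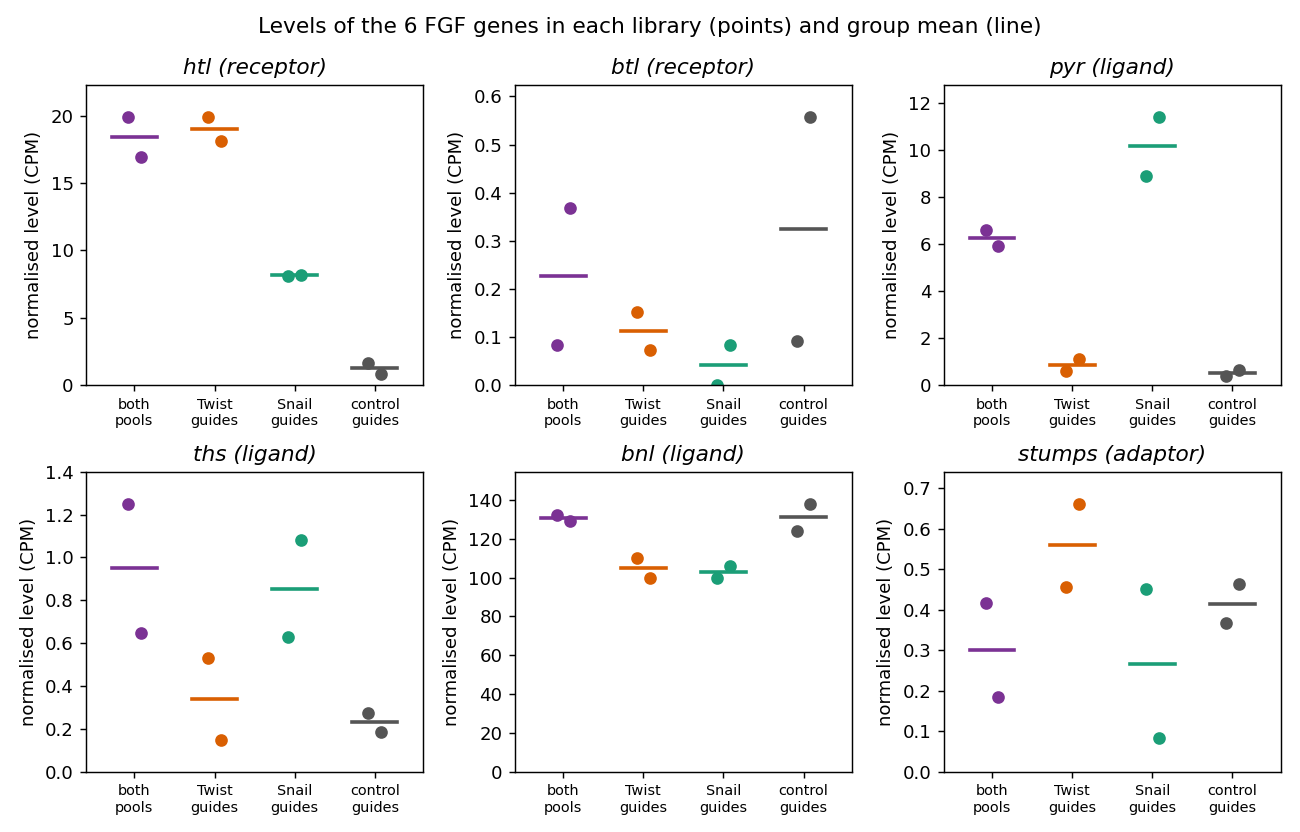
Normalised level (CPM, linear axes from 0, a scale of its own for each gene) of the 6 FGF genes in each of the 8 libraries. Points are libraries and lines are means of 2 libraries. The htl libraries of every activated group lie above both control libraries, pyr is high in the Snail and combined groups only, and bnl is near 100 CPM or above throughout.

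Of the 6 genes, 4 had enough counts to be tested (htl, pyr, ths and bnl), and btl and stumps did not. The filter asks for about 10 counts in at least 2 libraries, and htl met it only through activated libraries and pyr and ths only through libraries with Snail guides, alone or combined. Being tested is therefore not independent of where these genes were high. Against control guides 2 of the 6 genes passed at an adjusted p of 0.05 with both guide pools, where 1.57% of all 8029 tested genes did. The count was 1 with Twist guides (0.934% of all tested genes) and 2 with Snail guides (0.324% of all tested genes).

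The receptor htl (FBgn0010389, chromosome 3R, 18045216 to 18052984, minus strand in BDGP6.54) had 19.9 and 16.9 CPM with both guide pools, 19.9 and 18.1 CPM with Twist guides, 8.1 and 8.17 CPM with Snail guides, and 1.65 and 0.835 CPM with control guides. Every library of an activated group lay above both control libraries, and both Twist libraries lay above both Snail libraries. The control values rest on 18 and 9 counts, the lowest of the 4 groups. The log2 fold change over control guides was 3.88 ± 0.23 with both guide pools (SE; edgeR adjusted p = 8.2e-07), 3.92 ± 0.23 with Twist guides (adjusted p = 4.4e-07) and 2.70 ± 0.26 with Snail guides (adjusted p = 0.00019). These 3 comparisons share the control libraries.

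The groups could also be ordered against each other. htl was higher with Twist guides than with Snail guides, by 1.22 ± 0.16 on the log2 scale (adjusted p = 0.0014). In that comparison 2 of the 6 genes passed, beside 1.08% of all tested genes. Adding Snail guides to Twist guides left htl at a log2 difference of -0.04 (95% interval -0.37 to 0.28; adjusted p = 0.91), so the 2 highest groups could not be ordered. Adding Twist guides to Snail guides raised htl by 1.18 ± 0.17 (adjusted p = 0.0061), the only member to pass there, beside 0.909% of all tested genes. That call was lost without replicate 1 of both guide pools (1.06, adjusted p = 0.12), without Snail replicate 1 (1.18, adjusted p = 0.15) and without Snail replicate 2 (1.19, adjusted p = 0.11); over its 18 alternatives the adjusted p ran from 1.5e-07 to 0.15.

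The mean level of htl with both guide pools lay below the sum and below the product of the separate pools. The mean with both guide pools was 18.4 ± 2.12 CPM (SD, n = 2), beside 25.9 CPM for the control level plus the rises of the separate pools and 125 CPM for the product of their fold changes. The departure from the product was -2.74 ± 0.31 on the log2 scale (adjusted p = 0.0059). htl was the only member to pass this test, in which 0.174% of all tested genes passed. No test was made of the departure from the sum. In the same libraries twi stood at 13.7 and 12.7 CPM with both guide pools and at 26.3 and 28.2 CPM with Twist guides. The ratio of htl CPM to twi CPM was 1.46 and 1.34 with both guide pools, against 0.757 and 0.643 with Twist guides. The part of the lower twi level in the combined htl level was not tested.

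**Figure D2:**
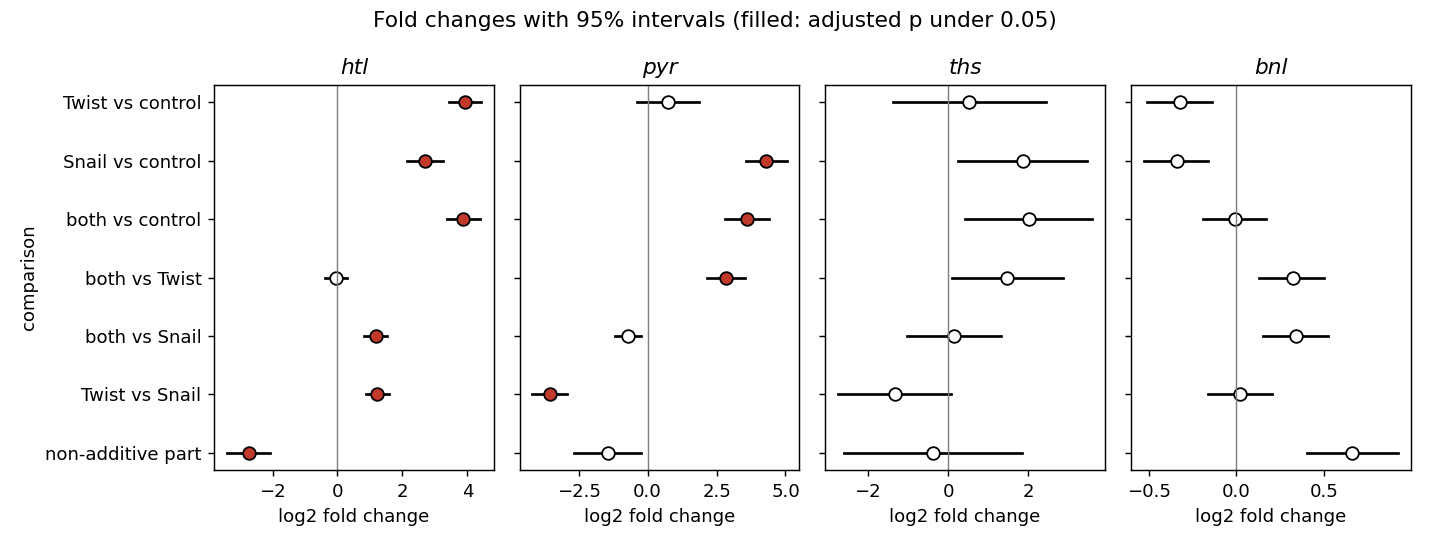
Fold changes (log2, a scale of its own for each gene) of the 4 tested FGF genes in 7 comparisons, with 95% intervals. Filled points passed at an adjusted p of 0.05. htl passed in 6 comparisons, pyr in 4, and ths and bnl in none.

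The receptor btl (FBgn0285896, chromosome 3L, 14075772 to 14083229) was near the limit of detection. It had 1 and 4 counts with both guide pools, 2 and 1 counts with Twist guides, 0 and 1 counts with Snail guides, and 1 and 6 counts with control guides. The highest library was a control library, and the groups overlapped or met at 1 count. With the filter on low counts removed, its adjusted p was 0.48 or more in each of the 7 comparisons. The ratio of the summed counts with both guide pools to control was 0.679 (95% counting interval 0.17 to 2.48), so a change of either direction within those bounds was not detectable at this depth. Counting intervals cover counting error only.

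Of the ligands, pyr (FBgn0033649, chromosome 2R, 11712263 to 11726345) had, with Snail guides, the largest fold change over control guides among the 4 tested members. It had 6.58 and 5.91 CPM with both guide pools, 0.61 and 1.1 CPM with Twist guides, 8.91 and 11.4 CPM with Snail guides, and 0.366 and 0.649 CPM with control guides. The control values rest on 4 and 7 counts and the Twist values on 8 and 15 counts. The libraries that received Snail guides, alone or combined, all lay above the 4 libraries without them, and the Twist and control libraries overlapped. The log2 fold change over control guides was 3.60 ± 0.36 with both guide pools (adjusted p = 0.00018) and 4.30 ± 0.34 with Snail guides (adjusted p = 2.2e-05). With Twist guides it was 0.75 (95% interval -0.37 to 1.87; adjusted p = 0.8). In the direct comparison pyr was lower with Twist guides than with Snail guides, by -3.55 ± 0.29 (adjusted p = 1.3e-05).

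Adding Snail guides to Twist guides raised pyr by 2.85 ± 0.31 (adjusted p = 0.00077), and it was the only member to pass in that comparison, beside 1.05% of all tested genes. The combined group had less pyr than the group with Snail guides alone in 2 of 2 libraries, at a log2 difference of -0.70 (95% interval -1.17 to -0.23; adjusted p = 0.13). This difference passed when either control library was left out (adjusted p = 0.023 each), with the filter removed (0.042) and with only the 2 groups in the fit (0.007); DESeq2 gave 0.34, and over 18 alternatives the adjusted p ran from 0.007 to 0.55. The settings that gained this call also gained many others: over all genes the number that passed was 1136 and 1127 without control replicate 1 and 2, 436 without the filter and 1549 with only the 2 groups, beside 73 in the fit of all libraries. In the same libraries sna stood at 124 and 122 CPM with both guide pools and at 97.1 and 102 CPM with Snail guides (log2 0.31 ± 0.10, edgeR adjusted p = 0.14). The ratio of pyr CPM to sna CPM was 0.0532 and 0.0485 with both guide pools, against 0.0918 and 0.112 with Snail guides. The part of the sna level in the combined pyr level was not tested. The combined level of pyr, 6.24 ± 0.472 CPM, compares with 10.5 CPM for the sum and 17.1 CPM for the product of the separate pools. The departure from the product did not pass (log2 -1.45, 95% interval -2.66 to -0.24; adjusted p = 0.26).

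The ligand ths (FBgn0033652, chromosome 2R, 11756817 to 11814424) is the neighbour of pyr, on the same strand with a gap of 30.5 kb and no annotated gene between them. It had 15 and 7 counts with both guide pools, 7 and 2 counts with Twist guides, 7 and 13 counts with Snail guides, and 3 and 2 counts with control guides. Each library with Snail guides, alone or combined, had more counts than either control library, and the Twist group overlapped the control group and met the other groups at 7 counts. The ratio of summed counts to control was 4.18 with both guide pools (95% counting interval 1.55 to 14.1), 1.46 with Twist guides (0.44 to 5.55) and 3.76 with Snail guides (1.37 to 12.8). In edgeR ths passed in none of the 7 comparisons, with an unadjusted p under 0.05 in 3, and DESeq2 did not call it in any comparison where it gave an adjusted p. The log2 fold change was 2.01 with both guide pools (95% interval 0.43 to 3.59; adjusted p = 0.2) and 1.86 with Snail guides (0.25 to 3.47; adjusted p = 0.3). CG13193 and CG42493, which lie within its annotated span, had 0 counts in every library.

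The ligand bnl (FBgn0014135, chromosome 3R, 19794073 to 19836817) was the only abundant member, at 1113 to 1580 counts per library. It had 132 and 129 CPM with both guide pools, 110 and 99.8 CPM with Twist guides, 100 and 106 CPM with Snail guides, and 124 and 138 CPM with control guides. The libraries that received 1 pool all lay below those with both pools and those with control guides, without overlap. The log2 fold change over control was -0.01 with both guide pools (95% interval -0.19 to 0.17; adjusted p = 0.97), -0.32 with Twist guides (-0.51 to -0.14; adjusted p = 0.14) and -0.34 with Snail guides (-0.53 to -0.16; adjusted p = 0.13). Without control replicate 1 the differences with Twist guides (-0.40, adjusted p = 0.0052) and with Snail guides (-0.42, adjusted p = 0.0011) passed. The difference with Twist guides also passed after a correction for transcript length (-0.33, adjusted p = 0.04), and that with Snail guides with the filter on low counts removed (-0.35, adjusted p = 0.018). In the fit without control replicate 1, 333 genes in place of 75 passed with Twist guides and 1443 in place of 26 with Snail guides; after length correction 78 passed with Twist guides, and without the filter 218 with Snail guides. Over 18 alternatives each, the adjusted p ran from 0.0052 to 0.75 with Twist guides and from 0.0011 to 0.61 with Snail guides.

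The combined level of bnl lay above the product of the separate changes, where that of htl lay below it. For bnl neither this departure nor either separate change passed in the main edgeR fit. The departure was 0.66 ± 0.12 on the log2 scale (adjusted p = 0.055), and the level of 130 ± 1.53 CPM with both guide pools compares with 76.9 CPM for the sum and 82.5 CPM for the product. DESeq2 called it (adjusted p = 0.0061, where 0.902% of the genes with an adjusted p were called). So did edgeR without control replicate 1 (0.74, adjusted p = 7.3e-05) or control replicate 2 (0.58, adjusted p = 0.0044), with DESeq2 size factors (adjusted p = 0.042), without the filter (0.00069) and after length correction (0.025). Over all genes 948, 396, 15, 236 and 37 passed in these edgeR fits, in the order given, beside 14 with all libraries. The adjusted p ran from 7.3e-05 to 0.37 over the 17 alternatives. The log2 difference of bnl with both guide pools was 0.32 against Twist guides (adjusted p = 0.088) and 0.34 against Snail guides (adjusted p = 0.082). When control replicate 1 or 2 was left out, these differences passed, at adjusted p of 0.0058 or 0.006 against Twist guides and of 0.0024 in either case against Snail guides. They also passed with the filter removed (0.031 and 0.015) and with only the 2 groups in the fit (0.019 and 0.00051), and the difference from Twist guides passed after length correction (0.044). The number of all genes that passed against Twist guides was 84 with all libraries, 977 and 975 without control replicate 1 and 2, 419 without the filter, 710 with only the 2 groups and 162 after length correction, and against Snail guides it was as given for pyr. Over 18 alternatives each, the adjusted p ran up to 0.77 against Twist guides and up to 0.45 against Snail guides.

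**Figure D3:**
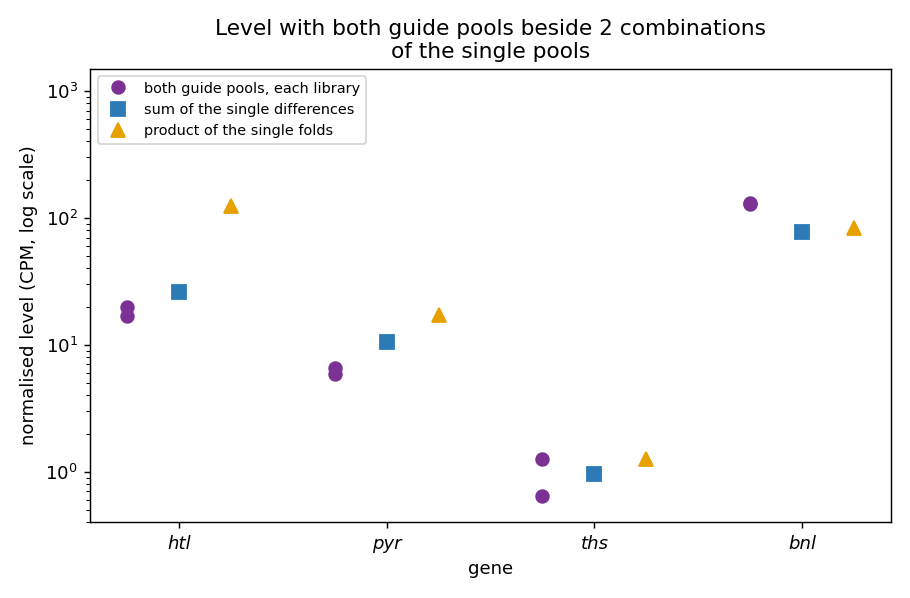
Level of the 4 tested FGF genes with both guide pools (circles, each library) beside the control level plus the differences of the separate pools (squares) and the product of their fold changes (triangles), in CPM on a log axis. The htl and pyr circles lie below both combinations and the bnl circles above both.

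The adaptor stumps (FBgn0020299, chromosome 3R, 14577217 to 14608079), which Heartless needs to signal, had 5 and 2 counts with both guide pools, 6 and 9 counts with Twist guides, 5 and 1 counts with Snail guides, and 4 and 5 counts with control guides. Both Twist libraries had more counts than the other 6, though in CPM they overlapped the control libraries (0.457 and 0.661 CPM with Twist guides, 0.366 and 0.464 CPM with control guides). The ratio of the summed counts to control was 0.739 with both guide pools (95% counting interval 0.234 to 2.23), 1.35 with Twist guides (0.555 to 3.51) and 0.626 with Snail guides (0.183 to 1.97). The upper bound for both guide pools lies below the lower counting bound of the htl ratio in those libraries, which was 14.9 (10.1 to 22.8). Without the filter on low counts, the adjusted p of stumps was 0.71 or more in each of the 7 comparisons.

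Other genes of the pathway were examined as lists of 34 symbols, of which 33 were found and tested. Against control guides 2 of the 33 passed with both guide pools, both higher, with a median log2 fold change of -0.02. DESeq2 called these and also sgl, an enzyme gene of the heparan sulfate list, which was lower. In that comparison DESeq2 called 164 of all genes and edgeR 126. sgl (log2 -0.49 ± 0.12, edgeR adjusted p = 0.07, DESeq2 adjusted p = 0.0058) is named after its values were seen. With Twist guides 1 passed, higher, with a median of 0.00. With Snail guides none passed in edgeR, with a median of -0.09 and 8 at an unadjusted p under 0.05. DESeq2 called 1 (dally) there, beside 78 of all genes, where edgeR called 26 of all genes. Over all tested genes the medians were -0.01, -0.01 and 0.00 in the same order, and 1.57%, 0.934% and 0.324% passed in edgeR. At such shares a short list with no call is not set apart from the other genes. The share of all tested genes at an unadjusted p under 0.05 is not given here. Without control replicate 1, the 33 genes held 3 higher and 7 lower calls with both guide pools, 1 higher and 1 lower with Twist guides, and 1 higher and 9 lower with Snail guides. In that fit 13.9%, 4.05% and 17.5% of all tested genes were called. Without control replicate 2 the counts were 5 higher with both guide pools, 3 higher with Twist guides and 1 higher with Snail guides, and the shares of all tested genes were 6.67%, 6.18% and 0.805%.

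The 15 genes of the RAS and MAP kinase relay, from the adaptor drk to the kinase rl, gave no call against control guides in edgeR or DESeq2, with 3 genes at an unadjusted p under 0.05 with both guide pools, 1 with Twist guides and 3 with Snail guides. Their log2 fold changes lay between -0.26 and 0.21 with both guide pools, between -0.20 and 0.13 with Twist guides and between -0.36 and 0.14 with Snail guides. The phosphatase gene csw, whose product binds Stumps, stood at -0.25 with both guide pools (adjusted p = 0.32), -0.20 with Twist guides (adjusted p = 0.77) and -0.36 with Snail guides (adjusted p = 0.22). Gap1, a GTPase activating protein gene that dampens RAS, stood at 0.16, 0.01 and -0.22 in the same order of groups, with adjusted p of 0.23 or more. Between activated groups, Gap1 passed with both guide pools against Snail guides (log2 0.38 ± 0.07, edgeR adjusted p = 0.043), where 0.909% of all tested genes did. Sulf1 of the heparan sulfate list passed with both guide pools against Twist guides (0.48 ± 0.10, edgeR adjusted p = 0.042), where 1.05% did. Sulf1 is named after its values were seen. trol passed with both guide pools and with Twist guides against Snail guides.

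The 7 genes of nuclear effectors and feedback inhibitors, several of them induced by MAP kinase signalling in other fly tissues, gave no call by either tool, with 2, 1 and 3 genes at an unadjusted p under 0.05 in the same order. sty (sprouty), an inhibitor first described as an antagonist of FGF signalling in the trachea, was abundant, at 1160 ± 13.4 CPM with both guide pools, 1370 ± 63.8 CPM with Twist guides, 1310 ± 6.92 CPM with Snail guides and 1350 ± 49.7 CPM with control guides (SD, n = 2 each). Its log2 fold change was -0.21 with both guide pools (95% interval -0.39 to -0.04; adjusted p = 0.21), 0.02 with Twist guides (-0.15 to 0.19) and -0.04 with Snail guides (-0.22 to 0.13). aop, an ETS repressor gene, stood at -0.12, -0.03 and -0.28 in the same order, with adjusted p of 0.2 or more.

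In the heparan sulfate list, which holds sugar chain enzymes and the proteoglycans that help FGF bind its receptors, trol and dally rose. trol, the perlecan gene, had 45.6 and 39.5 CPM with both guide pools, 50.8 and 40.8 CPM with Twist guides, 10.6 and 13.4 CPM with Snail guides, and 11 and 15.1 CPM with control guides. The libraries that received Twist guides, alone or combined, lay above all others, as did those of htl. The log2 fold change of trol was 1.71 ± 0.18 with both guide pools (adjusted p = 0.001), 1.81 ± 0.17 with Twist guides (adjusted p = 0.00033) and -0.11 ± 0.20 with Snail guides (adjusted p = 0.83). dally, a glypican gene, had 23 and 22.4 CPM with both guide pools, 19.8 CPM in either Twist library, 23 and 22.5 CPM with Snail guides, and 10.8 and 16 CPM with control guides. Every activated library of dally lay above both controls, and the log2 fold change was 0.76 ± 0.15 with both guide pools (adjusted p = 0.026), 0.57 with Twist guides (adjusted p = 0.16) and 0.77 with Snail guides (adjusted p = 0.058; DESeq2, 0.026). dally did not pass without a replicate of both guide pools (adjusted p = 0.2 without replicate 1 and 0.19 without replicate 2) or of Snail guides (0.052 and 0.054), in a range from 8.9e-05 to 0.2 over 18 alternatives, while trol passed in all 18 with Twist guides and with both guide pools.

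**Figure D4:**
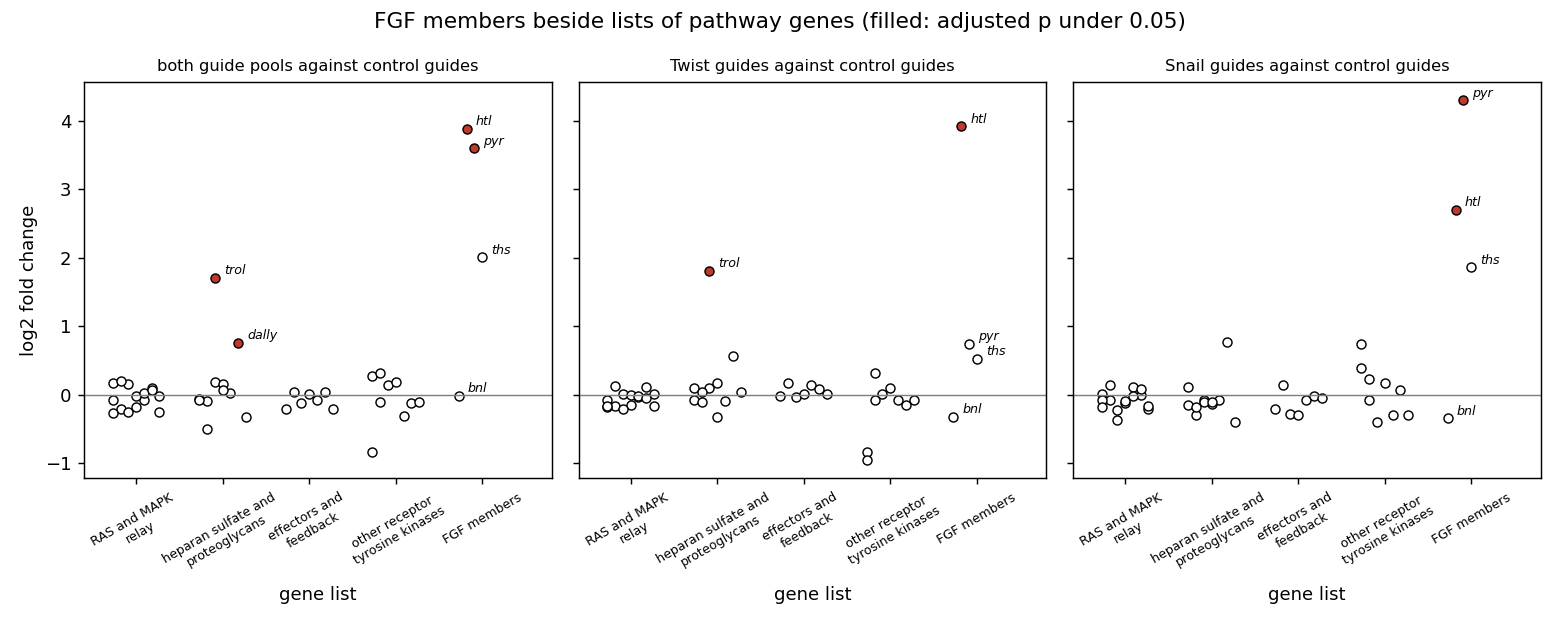
Fold changes over control guides (log2) of 33 other FGF pathway genes in 3 lists, of 9 other receptor tyrosine kinase genes and of the 4 tested FGF members, 1 panel per comparison. Filled points passed at an adjusted p of 0.05 and members and passing genes are named. Apart from trol and dally, no gene of the pathway and receptor lists has a filled point.

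htl was also set beside the other receptor tyrosine kinase genes. Of 16 such genes 9 were tested, and none passed in edgeR or DESeq2 against control guides. An unadjusted p under 0.05 was met by 1 with both guide pools, 0 with Twist guides and 3 with Snail guides. In edgeR 1.57%, 0.934% and 0.324% of all tested genes passed in the same order. No call among 9 genes is near those shares, so it is not a result about this class. Pvr, the receptor of blood cells for PDGF- and VEGF-like ligands, stood at 380 CPM with both guide pools, 446 CPM with Twist guides, 384 CPM with Snail guides and 470 CPM with control guides. Its log2 fold change was -0.31 with both guide pools (adjusted p = 0.12), -0.07 with Twist guides (adjusted p = 0.92) and -0.29 with Snail guides (adjusted p = 0.2). Egfr, at most 0.0867 CPM in a group mean, had at most 2 counts in a library.

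The genes whose levels followed those of htl and pyr most closely were taken from 402 tested genes whose group means spanned at least 1 on the log2 scale. For htl, Pearson's correlation of log2 CPM over the 8 libraries was 0.968 with CG4793, 0.954 with upd2, a ligand of the JAK/STAT pathway, and 0.947 with SKIP. CG4793 had 3.16 and 3.42 CPM with both guide pools, 3.43 and 2.72 CPM with Twist guides, 1.62 and 2.08 CPM with Snail guides, and 1.19 and 0.742 CPM with control guides, a narrower range than that of htl. For pyr it was 0.973 with CG31235, 0.971 with sna itself and 0.964 with CG6114. The 8 points fall into 4 groups and share their libraries and scaling, so these values describe likeness only.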

How the data were processed

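The deposited tables, 1 for each of 8 libraries, hold raw counts per gene symbol as the authors made them. TopHat2 (version 2), Bowtie2, HTSeq and DESeq are named in the submitters' processing notes without order or role. The build, gene models, strandedness and counting mode were not given in the sources used here, so reads of overlapping genes cannot be told apart. Identifiers, coordinates and transcript lengths were taken by symbol from Ensembl 115 (BDGP6.54); 10669 symbols were current, 3235 were older and 257 were not matched.

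The quasi-likelihood test of edgeR 4.0.16 (R 4.3.3) was run on 8029 genes kept by filterByExpr (minimum count 10), with TMM factors of 0.983 to 1.02 and robust estimation. All 8 libraries entered as 4 groups, which left 4 residual degrees of freedom, with Benjamini-Hochberg adjustment over all tested genes of each of 7 comparisons, at 0.05. SE is the log2 fold change divided by the root of F, and 95% intervals use the fit's degrees of freedom. The non-additive comparison is both pools minus each single pool plus control on the log2 scale. DESeq2 1.42.0 is named wherever it, and not edgeR, gave a p. The series calls the 2 libraries of a group biological replicates. The p-values rest on the spread between replicates, pooled over the 4 groups and drawn towards that of other genes.

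The procedure was also run on simulated counts in which the spread of a gene was the same in every group. That run cannot show how the p-values behave under the wider spread of the control pair. Alternatives were scaling by library size only or by DESeq2 size factors, removal of the filter or a minimum of 1 CPM in 2 libraries, the DESeq2 test, a threshold of 0.01, a fit of only the groups compared, a block for the replicate number, omission of each library by turns (a lone library is then assumed to vary like the others), and removal of a lowess trend on transcript length (span 0.3). A block with crossed control numbers was chosen after seeing the data. Named genes are the 6 members, twi, sna, list genes that passed against control (at most 5 per list, or the 2 smallest p), and for each member that passed the 3 genes most correlated with it, on log2 CPM with a prior count of 2. The members and lists were chosen with earlier results of these data known. Plots were drawn with matplotlib 3.10.9.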

Additional observations from a re-analysis of the deposited data

Results flagged for a closer look

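The change of htl with Snail guides differed with and without Twist guides, by a test of the difference itself on the log2 scale. The control level of htl rests on 18 and 9 counts. The groups compared also differed in twi, which was lower with both guide pools than with Twist guides (log2 -1.05 ± 0.14, edgeR adjusted p = 0.0071). The part of the lower twi level in the htl result was not tested. The log2 change of htl was -0.04 when Snail guides were added to Twist guides and 2.70 when they were given alone. The difference of -2.74 ± 0.31 passed with edgeR (adjusted p = 0.0059) and with DESeq2 (adjusted p = 5.2e-07). The difference kept its sign and passed in each of its 17 alternatives, from -3.31 to -2.34, with adjusted p from 1.7e-10 to 0.047.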

How the results depend on the processing

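Against control guides, htl passed under all 18 alternatives with each pool and with both, and pyr passed under all 18 with Snail guides and with both guide pools. The log2 change of htl ran from 3.47 to 4.45 with both, 3.52 to 4.49 with Twist guides and 2.30 to 3.27 with Snail guides. That of pyr ran from 3.25 to 4.05 with both and 3.95 to 4.76 with Snail guides.

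The count of the 6 members that passed was 2 in place of 1 after length correction with Twist guides against control, and with both guide pools against Twist guides after length correction, without the filter or with only the groups compared (162, 419 and 710 of all genes, beside 84). It was 3 in place of 1 with both guide pools against Snail guides without the filter or with only the groups compared (436 and 1549 of all genes, beside 73). For the non-additive part it was 2 in place of 1 with DESeq2 size factors, without the filter, with the DESeq2 test and after length correction (15, 236, 64 and 37 of all genes, beside 14). With each library left out in turn it ran from 1 to 2 with Twist guides, 2 to 3 with Snail guides and 2 to 2 with both guide pools against control, from 1 to 2 with both guide pools against Twist guides, from 0 to 3 against Snail guides, from 2 to 2 for Twist against Snail guides and from 1 to 2 for the non-additive part.

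The count of the 33 other pathway genes was 2 in place of 1 with Twist guides without the filter (all genes: 128, beside 75). With Snail guides it was 1 (dally) in place of 0 with DESeq2 size factors (all genes: 32, beside 26) and without the filter (218). The same held with DESeq2 (78), the replicate block (35) and length correction (38). With both pools it was 1 (trol), not 2, at a threshold of 0.01 (43, beside 126) and with only the groups compared (56). It was 3 (sgl added, lower) with DESeq2 (164) and no filter (353). With each library left out it ran from 1 to 3 with Twist guides, 0 to 10 with Snail guides and 1 to 10 with both guide pools. Over all genes, with a library left out, 41 to 507 passed with Twist guides, 6 to 1443 with Snail guides and 30 to 1148 with both guide pools, 9 to 977 with both against Twist guides, 9 to 1136 against Snail guides, 39 to 858 for Twist against Snail guides and 1 to 948 for the non-additive part.

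No passing difference changed sign. ths turned to -0.61 with Twist guides against control without Twist replicate 1 (range with a library left out -0.61 to 1.17). Its non-additive part turned to 0.76 without Twist replicate 1 and 0.07 without Snail replicate 2 (range -1.02 to 0.76). With both guide pools against Snail guides ths turned to -0.41 without replicate 1 of both guide pools, -0.17 without Snail replicate 1 and -0.08 after length correction (range -0.41 to 0.60). bnl with both guide pools against control turned to 0.01 without replicate 2 of both guide pools and 0.07 without control replicate 2 (range -0.09 to 0.07). For Twist against Snail guides bnl turned to -0.05 without Twist replicate 1, -0.01 without Snail replicate 1 and -0.05 after length correction (range -0.05 to 0.09). htl with both guide pools against Twist guides turned to 0.06 without replicate 2 of both guide pools and 0.02 without Twist replicate 1 (range -0.17 to 0.06). The cause was not tested.

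Deviations of same-numbered libraries correlated at -0.15 to 0.14 over the 6 pairs of groups. No strong shared effect of the replicate number was seen, which cannot show that the libraries were unpaired. The replicate block changed no member's call and gave 76 and 119 of all genes with Twist guides and both, beside 75 and 126. With control numbers crossed, chosen after seeing the data, 26 genes passed with Snail guides. Depth limits ths, btl and stumps (at most 15 counts).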
